A study of Homo sapiens with 40 samples.

Results

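ALOX15 (ENSG00000161905.13), SERPINB3 (ENSG00000057149.16), SERPINB4 (ENSG00000206073.11) and SERPINB6 (ENSG00000124570.21) were followed through 40 RNA libraries of BEAS-2B, a bronchial epithelial cell line of human origin that has been immortalised. The 4 rows were taken by their Ensembl identifiers from a table of 62263 genes, of which 16735 passed the filter on low counts, and all 4 were among them. The first 3 are genes known to be raised by type 2 cytokines in airway epithelium, while SERPINB6 is a broadly expressed relative of SERPINB3 and SERPINB4.

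All cells carried a short hairpin RNA and came from 1 of 2 stable lines, labelled shControl (here control) and shIGF2BP3 (here knockdown). The column names of the table write siC and siIGF2BP3 instead. All cells were grown in RPMI with 10% serum and starved overnight in 2% serum. One set then received 100 ng/ml of IL-13 and the other no cytokine (unstimulated), and cells were harvested 24 h later. RNA was read from the whole lysate (input) and from the polysome fraction, which holds mRNA loaded with several ribosomes. The 2 fractions, 2 treatments and 2 lines gave 8 groups of 5 libraries. With 1 line per hairpin, an effect of the knockdown and some other difference between lines cannot be told apart.

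ALOX15 encodes arachidonate 15-lipoxygenase, which adds oxygen to arachidonic and linoleic acid and, with PEBP1, oxidises membrane phospholipids. The clade B serpins are inhibitors of proteases that lack a classical secretion signal and act mostly inside cells. SERPINB3 is known to block papain-like cysteine proteases such as cathepsins L, K and S, SERPINB4 serine proteases such as cathepsin G and mast cell chymase, and SERPINB6 trypsin-like proteases and cathepsin G. IL-13 acts through IL4R and IL13RA1 on JAK kinases and STAT6, and ALOX15, SERPINB3 and SERPINB4 are among the genes by which its action on airway epithelium is usually recognised.

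SERPINB3 and SERPINB4 are neighbours on chromosome 18 by the order of RefSeq genes, and their sequences are shown because they bear on how reads may be shared between the 2 rows. The 250 bases before each gene's start differed at 3 positions (98.8% identity). Both come from RefSeq, build GRCh38.p14, minus strand, written 5′ to 3′, with the differing bases in capitals, at chr18:63661894-63662143 for SERPINB3 and chr18:63644257-63644506 for SERPINB4.
SERPINB3 promoter: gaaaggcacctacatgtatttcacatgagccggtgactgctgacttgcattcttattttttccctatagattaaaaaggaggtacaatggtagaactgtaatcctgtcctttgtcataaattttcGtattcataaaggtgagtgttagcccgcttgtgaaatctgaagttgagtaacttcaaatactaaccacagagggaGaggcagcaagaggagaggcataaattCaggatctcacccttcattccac
SERPINB4 promoter: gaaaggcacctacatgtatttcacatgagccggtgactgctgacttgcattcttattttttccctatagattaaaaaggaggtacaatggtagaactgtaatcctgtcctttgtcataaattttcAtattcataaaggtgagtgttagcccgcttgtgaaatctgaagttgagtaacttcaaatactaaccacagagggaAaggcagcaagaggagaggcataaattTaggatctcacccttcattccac
Counted from 1 at the 5′ end, with the base of SERPINB3 first, the substitutions were G126A, G201A and C228T.

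The coding sequences of SERPINB3 and SERPINB4 in the GENCODE annotation were 1173 bases each and identical at 95.23% of aligned positions. The following 60-base stretch, positions 952 to 1011 of the coding sequence in exon 8 of 8, had the lowest identity, 50 of 60 bases, together with 4 others of the windows compared. It shows where a read can be told apart, with the differing bases in capitals.
SERPINB3 coding: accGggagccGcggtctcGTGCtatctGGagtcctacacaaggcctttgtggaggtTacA
SERPINB4 coding: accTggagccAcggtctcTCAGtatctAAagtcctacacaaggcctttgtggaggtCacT
Over all annotated transcripts, 39% of the 31-base words of SERPINB3 were also in SERPINB4, and 33.9% of those of SERPINB4 were in SERPINB3. SERPINB6, on chromosome 6, shared no such word with either, nor did ALOX15 on chromosome 17. The split of reads between SERPINB3 and SERPINB4 is therefore uncertain, and their sum is given beside them.

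A palindromic pair of half-sites, TTC and GAA with 3 or 4 bases of any kind between them, the form that STAT proteins are known to bind, was searched in the RefSeq promoter windows, from 250 bases before to 50 after each start. It reads the same on both strands. No match was found in the window of SERPINB3, that of SERPINB4 or the 4 windows of SERPINB6, against 13.5% of 35116 windows of all genes that held 1. ALOX15 was not searched.

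Library totals were between 14044352 and 40441061 estimated counts in input and between 1816848 and 34082191 in polysome RNA. Below 5000000 counts there were 3 libraries, all of knockdown polysome RNA, namely unstimulated replicates 1 and 5 and IL-13 replicate 5. Unstimulated control replicate 1 stood apart among the input libraries, with a median correlation of 0.938 to the rest of its group over 12264 genes, against 0.951 to 0.982 in the other input libraries. IGF2BP3, the targeted gene, was at 35.2 CPM ± 11.3 (SD, n = 5) in unstimulated control input and 24.8 ± 3.02 in knockdown input, and at 35.4 ± 6.71 and 25.8 ± 6.28 after IL-13. In polysome RNA it was at 11.2 ± 6.83 in control and 11.2 ± 8.60 in knockdown cells without IL-13, and at 10.6 ± 3.61 and 9.15 ± 4.78 with it. Its ranges overlapped in each of the 4 comparisons, with log2 values, knockdown minus control, of -0.50 (input) and -0.10 (polysome RNA) for unstimulated cells and of -0.45 and -0.15 after IL-13 (edgeR adjusted p = 1, 0.985, 1 and 0.944). A lower level of the targeted RNA in the line labelled knockdown was thus not called in either fraction. CPM are counts scaled to library size with TMM factors. Summed CPM of 5 epithelial markers (EPCAM, CDH1, KRT8, KRT18, KRT19) ran from 628 to 3478 over the 40 libraries, nearly all of it from the keratins. The defining markers CDH1 and EPCAM were near 0, with group means of 0.0529 to 1.72 CPM for CDH1 and 0.274 to 1.02 for EPCAM. Mesenchymal markers (VIM, FN1, CDH2), which epithelium in tissue has little of, summed to between 693 and 3496 CPM, as high as the epithelial sum. The 3 secretory or goblet cell markers (MUC5AC, SPDEF, SCGB1A1) summed to between 0 and 0.448 CPM.

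**Figure D1:**
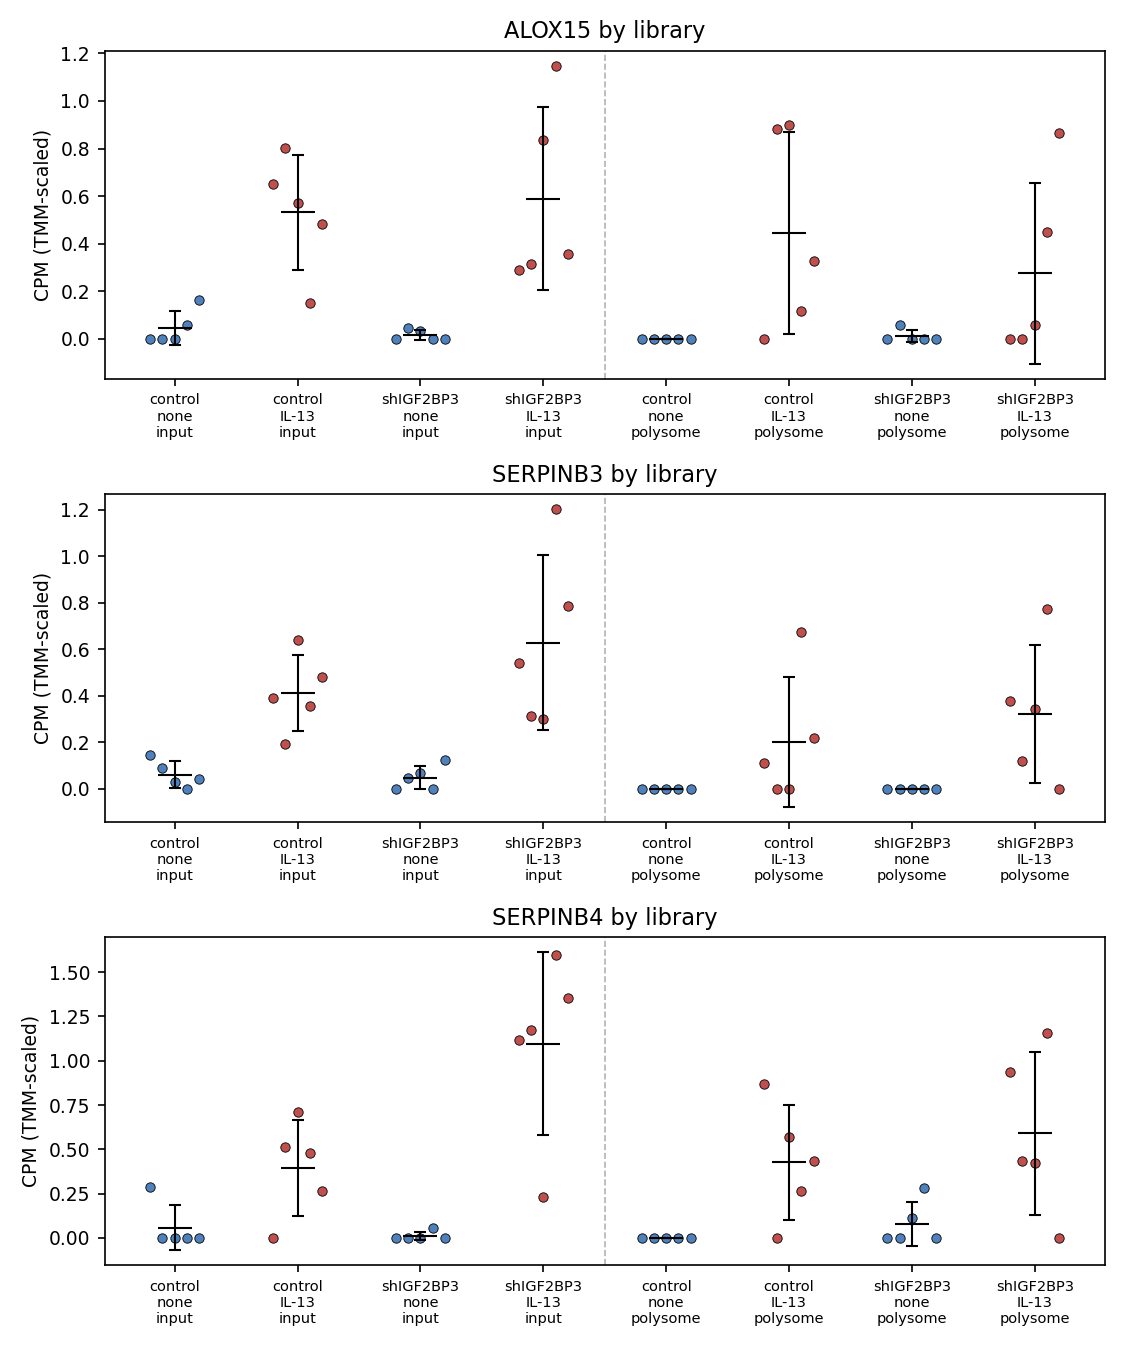
CPM (vertical axes, linear) of ALOX15, SERPINB3 and SERPINB4 in each of 40 libraries, by line, treatment and fraction, with blue points unstimulated and red points IL-13, and black bars for the mean and SD of 5 libraries. The IL-13 groups reach 1.15 CPM for ALOX15, 1.20 for SERPINB3 and 1.60 for SERPINB4, while most unstimulated libraries are at 0.

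ALOX15, SERPINB3 and SERPINB4 were at or near 0 counts without IL-13 and at up to 57 counts per library with it. SERPINB6 was abundant throughout, and its summed counts per library size were 1.40 and 1.44 times as high with IL-13 in control and knockdown input. In the edgeR quasi-likelihood test within 1 line and fraction, 0 of the 4 genes were called for IL-13. Of all genes tested, 0.0777% were called in control input, 0.0837% in knockdown input, 0.125% in control polysome and 0.0956% in knockdown polysome. At an unadjusted p under 0.05 the members numbered 4, 4, 3 and 4, against 341, 173, 860 and 538 of all 16735 genes, and the DESeq2 Wald test called SERPINB4 in knockdown input (adjusted p = 0.0236). In a mean over both lines, added after seeing the data, 3 of 4 were called in input and 1 of 4 in polysome RNA, against 0.149% and 0.209% of all genes. ALOX15, SERPINB3 and SERPINB4 passed the filter through their IL-13 libraries, and all 4 genes were chosen with earlier results of these data known. The counts of members beside all genes are therefore a description and not a test of the set.

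The estimated counts of ALOX15 in unstimulated control input were 0, 0, 0, 2 and 4 in replicates 1 to 5, and with IL-13 they were 15, 25, 16, 6 and 11. In CPM these were 0.0442 ± 0.0710 and 0.532 ± 0.243 (SD, n = 5). Each IL-13 library held more counts than any unstimulated one, but in CPM the lowest IL-13 library, replicate 4 at 0.152 CPM, lay under the highest unstimulated library at 0.163 CPM. Summed over libraries the ratio was 13.3 (95% exact interval 5.83 to 37.4, counting error only). In this cell line as in any bulk sample, a higher level per cell and more cells with the transcript cannot be told apart.

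In knockdown input ALOX15 had 0, 1, 1, 0 and 0 counts without IL-13 and 7.2, 8, 25, 41 and 5 with it. All 5 IL-13 libraries were above all 5 unstimulated libraries, and the ratio of summed counts was 42.1 (11.3 to 353), from 2 counts in the lower group. Within a line, the edgeR adjusted p was 0.780 in control and 0.388 in knockdown input. Averaged over both lines, ALOX15 rose by 4.16 ± 0.83 on the log2 scale (SE, 20 input libraries, adjusted p = 0.0130). It was called in 20 of 20 fits that each left out 1 of those libraries.

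Polysome RNA of unstimulated control cells held no ALOX15 count in any library, and the IL-13 libraries held 0, 20, 27, 4 and 3. Replicates 2 and 3 carried most of them, and replicate 1 none. Against a floor of 3 counts over the unstimulated group, the summed IL-13 counts were 12.1 times as high per library size. That value is a ratio to the floor and not a confidence bound. In knockdown polysome RNA the counts were 0, 1, 0, 0 and 0 without IL-13 and 0, 0, 2, 14 and 2 with it, a ratio of 9.37 (1.48 to 390). Here the libraries overlapped and 14 of the 18 counts were in replicate 4. The average over lines was not called in polysome RNA (4.80 on the log2 scale, adjusted p = 0.0604).

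SERPINB3, the cysteine protease inhibitor, had 4, 3, 1, 0 and 1 counts in unstimulated control input and 9, 6, 18, 14 and 11 with IL-13. In knockdown input the counts were 0, 1, 2, 0 and 2 without and 13, 8.2, 9, 43 and 11 with IL-13. Every IL-13 library was above every unstimulated library of its line, in CPM as in counts. The ratios of summed counts were 7.05 (3.47 to 16.2) and 16.5 (6.78 to 52.0). By exact permutation of log2(CPM + 1), two-sided, the p was 0.00794 in each line, the smallest that 5 against 5 can give, and 0.0318 after adjustment over 8 effects. ALOX15, SERPINB4 and SERPINB6 reached the same permutation p in knockdown input only, each at 0.0635 after adjustment. This test had been planned only for a member that failed the filter. In edgeR the adjusted p of SERPINB3 was 1 and 0.879, and 0.0623 for the mean over lines (3.20 on the log2 scale).

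No polysome library of unstimulated cells, of either line, held a count of SERPINB3. With IL-13 the control polysome libraries held 1, 0, 0, 23 and 2 counts, so that replicate 4 carried 23 of 26. The knockdown polysome libraries held 10, 3, 12, 24 and 0 counts, with the 0 in the library of 2302952 total counts. Against a floor of 3 counts over each unstimulated group, the summed IL-13 counts were 5.84 and 8.50 times as high per library size. SERPINB3 was the 1 member called in polysome RNA for the mean over lines (adjusted p = 0.0139). Without control IL-13 replicate 4 that adjusted p was 0.0859, and in a fit of the 20 polysome libraries alone it was 0.339.

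SERPINB4, the serine protease inhibitor next to it, had 8, 0, 0, 0 and 0 counts in unstimulated control input and 0, 16, 20.2, 19 and 6 with IL-13. All 8 unstimulated counts were in replicate 1, the library that stood apart. In knockdown input the counts were 0, 0, 0, 2 and 0 without and 27, 29.8, 7, 57 and 19 with IL-13, with no overlap. The ratios of summed counts were 8.34 (3.98 to 20.2) and 68.5 (18.6 to 572). The fitted log2 difference in knockdown input was 5.81 with an adjusted p of 0.102, and averaged over lines SERPINB4 rose by 4.28 ± 0.86 (SE, 20 input libraries, edgeR adjusted p = 0.0135), called in 20 of 20 fits without 1 library. Without replicate 1 of the unstimulated control in both fractions, the adjusted p in knockdown input was 0.0292.

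In polysome RNA, SERPINB4 was at 0 in the 5 unstimulated control libraries and at 8, 0, 17, 9 and 4 counts with IL-13. Against the floor of 3 counts over the unstimulated group this was 8.53 times as high. Knockdown polysome libraries held 0, 0, 2.2, 6 and 0 counts without IL-13 and 25, 10.8, 14.6, 36 and 0 with it, a ratio of 5.66 (2.75 to 13.5). As for SERPINB3, the library with the fewest total counts of the IL-13 knockdown group was the one at 0.

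Because reads of the paralogs can be exchanged, SERPINB3 and SERPINB4 were also added to 1 row before the fit. The sum measured 0.117 CPM ± 0.177 in unstimulated and 0.806 ± 0.348 in IL-13 control input, and 0.0575 ± 0.0435 and 1.72 ± 0.838 in knockdown input (SD, n = 5). In edgeR the sum rose with IL-13 in knockdown input (log2 4.81, adjusted p = 0.0406) and in control polysome RNA (6.84, adjusted p = 0.0372), but did not pass in control input (2.76, adjusted p = 0.878) or knockdown polysome RNA (3.08, adjusted p = 0.754). Averaged over lines it rose by 3.79 in input and 4.96 in polysome RNA (adjusted p = 0.00242 and 0.00250). SERPINB3 made up 48.7% of the pair's counts in IL-13 control input (exact 95% interval 39.5 to 58.1) and 37.5% in IL-13 knockdown input (31.1 to 44.2). In polysome RNA of IL-13 cells its share was 40.6% and 36.3%. The intervals of these shares cover counting error only and leave out the spread between libraries. In IL-13 control input, replicate 1 held 9 counts of SERPINB3 and 0 of SERPINB4, while replicate 2 held 6 and 16. These shares also depend on how reads were assigned, and no test between the lines was made.

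**Figure D2:**
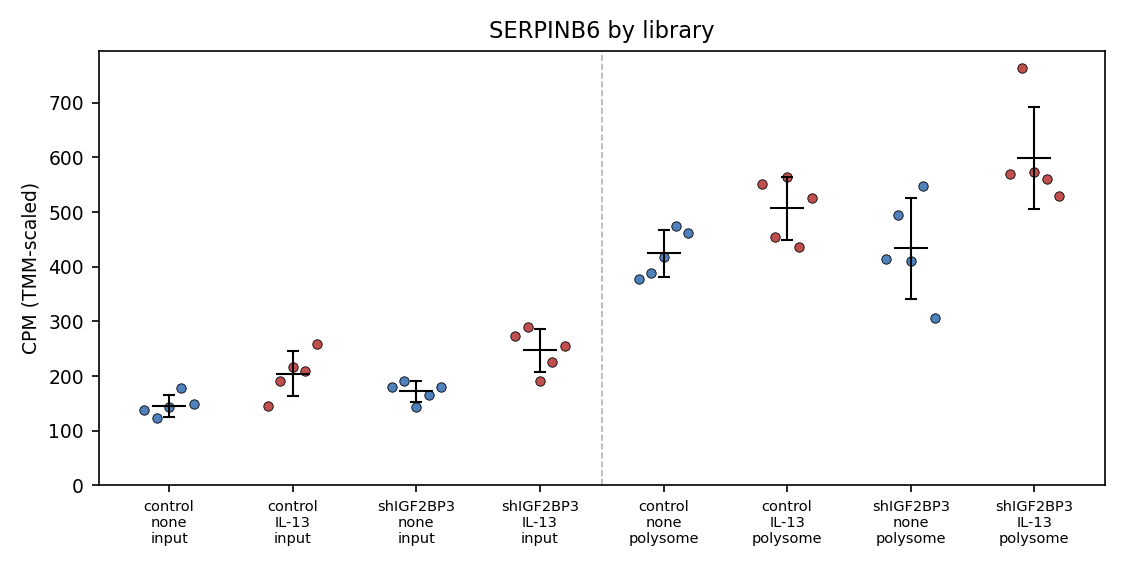
CPM (vertical axis, linear from 0) of SERPINB6 in each of 40 libraries, by line, treatment and fraction, with blue points unstimulated and red points IL-13, and black bars for the mean and SD of 5 libraries. Every polysome library, from 305 CPM upwards, lies above every input library, the highest of which is at 289 CPM.

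SERPINB6 was the abundant member. On the TPM scale, which allows genes to be compared, its input means were between 144 and 242, while the highest group mean was 0.287 for ALOX15, 0.490 for SERPINB3 and 0.817 for SERPINB4. Its CPM in unstimulated control input were 138, 122, 143, 177 and 148 in replicates 1 to 5, and 146, 192, 216, 210 and 259 with IL-13. The 2 groups overlapped through IL-13 replicate 1. The log2 difference was 0.49 ± 0.15 (SE, edgeR adjusted p = 0.717).

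In knockdown input SERPINB6 measured 180, 191, 143, 165 and 180 CPM without IL-13 and 273, 289, 191, 225 and 255 with it. The lowest IL-13 library lay just above the highest unstimulated one, 191.4 against 191.3 CPM. The log2 difference was 0.52 ± 0.15 (SE, edgeR adjusted p = 0.818), and the exact permutation p was 0.00794, or 0.0635 adjusted over 8 effects. Averaged over lines, SERPINB6 rose in input by 0.50 ± 0.11 on the log2 scale (edgeR adjusted p = 0.0204). The call held in 14 of 20 fits that left out 1 library, with a highest adjusted p of 0.0808, and was lost without the filter on low counts (adjusted p = 0.149). The 6 libraries whose omission ended it were IL-13 control replicate 5, IL-13 knockdown replicates 1 and 2, unstimulated control replicate 2 and unstimulated knockdown replicates 3 and 4.

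The sum of the 5 epithelial markers, carried almost wholly by KRT8 and KRT18, had a higher lowest and a higher highest input library with IL-13 in both lines. Its range was 1291 to 2075 CPM in unstimulated and 1824 to 3198 in IL-13 control input, and 1208 to 1935 and 1560 to 3478 in knockdown input. KRT8 measured 998 CPM ± 215 and 1610 ± 399 in unstimulated and IL-13 control input (SD, n = 5). CDH1 measured 1.72 ± 1.55 and 0.925 ± 1.04, and EPCAM 0.668 ± 0.371 and 0.461 ± 0.294. Of the 5 markers, 3 had a log2 difference above 0 in control input and 5 in knockdown input, 0 were called for IL-13 in either line, and their part in the SERPINB6 result was not tested.

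In control polysome RNA SERPINB6 was at 378, 389, 418, 474 and 462 CPM without IL-13 and at 552, 455, 565, 437 and 526 with it, a log2 difference of 0.26 ± 0.15 (SE, edgeR adjusted p = 1). In knockdown polysome RNA it was at 413, 494, 410, 547 and 305 CPM without IL-13 and at 570, 763, 574, 561 and 529 with it, a difference of 0.46 ± 0.15 (adjusted p = 0.713). Both pairs of groups overlapped. The average over lines, 0.36 ± 0.11, was not called (adjusted p = 0.293).

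**Figure D3:**
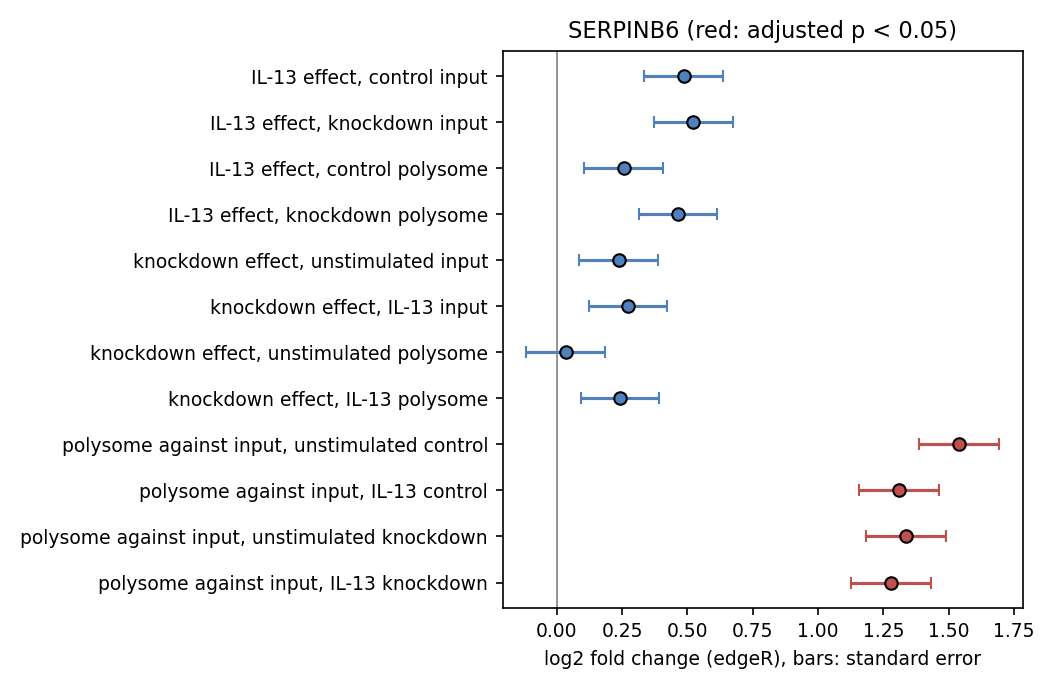
Log2 fold changes of SERPINB6 (horizontal axis) from the edgeR fit for 12 comparisons (vertical axis), with standard errors as bars and called comparisons in red. The 4 polysome-to-input differences lie between 1.28 and 1.54, and the IL-13 effects between 0.26 and 0.52.

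Polysome RNA was then set against input. Each library was scaled to its own size, so a difference is relative to other genes. It does not give the part of a transcript that was with ribosomes. SERPINB6 was higher in polysome RNA in all 4 settings and was the 1 of 4 members called each time. Of all genes tested, 40.2% were called in unstimulated control, 39.3% in IL-13 control, 38.5% in unstimulated knockdown and 39.3% in IL-13 knockdown cells, so a count of 1 in 4 is not above the background. SERPINB6 differed by 1.54 ± 0.15 in unstimulated control cells on the log2 scale (SE, 424 CPM ± 42.6 against 146 ± 20.2, edgeR adjusted p = 2.547e-10). The difference was 1.31 ± 0.15 in IL-13 control cells (507 ± 57.7 against 204 ± 40.9, adjusted p = 7.758e-09). It was 1.34 ± 0.15 and 1.28 ± 0.15 in unstimulated and IL-13 knockdown cells (adjusted p = 5.831e-09 and 1.331e-08). The median over all genes was between -0.23 and -0.19 in these comparisons. No polysome library overlapped an input library of the same setting, and the call held in 10 of 10 fits without 1 library in each setting.

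The other members were too low for such a statement in unstimulated cells. After IL-13, ALOX15 had a polysome-to-input ratio of 1.02 (0.702 to 1.47) in control and 0.224 (0.127 to 0.376) in knockdown cells, by summed counts. SERPINB3 had 0.617 (0.373 to 0.995) and 0.625 (0.430 to 0.900), and SERPINB4 0.857 (0.556 to 1.30) and 0.666 (0.504 to 0.877). These intervals cover counting error only, and the libraries of the fractions overlapped for each gene. The edgeR adjusted p ran from 0.239 to 0.973. The sum of SERPINB3 and SERPINB4 was lower in polysome RNA of unstimulated control cells (log2 -4.46, edgeR adjusted p = 0.0200), where polysome RNA held 0 counts and input 17. Of those 17 counts, 12 were in replicate 1, the library that stood apart.

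The knockdown line was compared with the control line at each treatment and fraction. None of the 4 members was called in edgeR, against 0.012% of all genes in unstimulated input, 0% in IL-13 input, 0.0299% in unstimulated polysome and 0.0896% in IL-13 polysome RNA. At an unadjusted p under 0.05 the members numbered 0, 0, 1 and 0, against 497, 502, 1243 and 1660 of all genes, and DESeq2 called none. The 1 was SERPINB4 in unstimulated polysome RNA, with 8 counts against 0 (edgeR adjusted p = 0.521). After IL-13 in input, SERPINB4 had 140 counts in knockdown and 61 in control libraries, a ratio of 2.57 (1.89 to 3.53). The spread between libraries was wider than that interval, and the edgeR adjusted p was 1.

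The log2 difference of SERPINB6, knockdown minus control, was 0.24 ± 0.15 in unstimulated input, 0.27 ± 0.15 in IL-13 input, 0.03 ± 0.15 in unstimulated polysome and 0.24 ± 0.15 in IL-13 polysome RNA (SE, edgeR adjusted p = 1, 1, 0.986 and 0.631). The libraries overlapped each time. ALOX15 after IL-13 had 86 against 73 counts in input and 18 against 54 in polysome RNA, a ratio of 0.291 (0.160 to 0.504) in the latter, with an edgeR adjusted p of 0.775. In the mean over both treatments, again 0 of 4 were called, against 0.406% of all genes in input and 1.38% in polysome RNA, and 1 member was under an unadjusted 0.05 in each (SERPINB6 in input, 0.26 ± 0.11, adjusted p = 0.652, and SERPINB4 in polysome RNA, adjusted p = 0.232).

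The IL-13 effect was then compared between lines, and each effect between fractions, by interaction terms. No member was called. The background was 0% of genes for the line difference in input, 0% in polysome RNA, 0% for the shift of the IL-13 effect between fractions in control and in knockdown cells, and 0% and 0.00598% for the shift of the knockdown effect without and with IL-13. For SERPINB6 the IL-13 effect differed between lines by 0.04 in input (95% interval -0.40 to 0.47) and by 0.21 in polysome RNA (-0.22 to 0.64), and from input to polysome RNA by -0.23 (-0.66 to 0.20) in control and -0.06 (-0.49 to 0.38) in knockdown cells. These intervals leave room for differences about as large as the IL-13 effect itself. At an unadjusted p under 0.05 the 6 terms held 0, 0, 0, 0, 1 and 0 members, and the 1 was again SERPINB4 (edgeR adjusted p = 1).

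**Figure D4:**
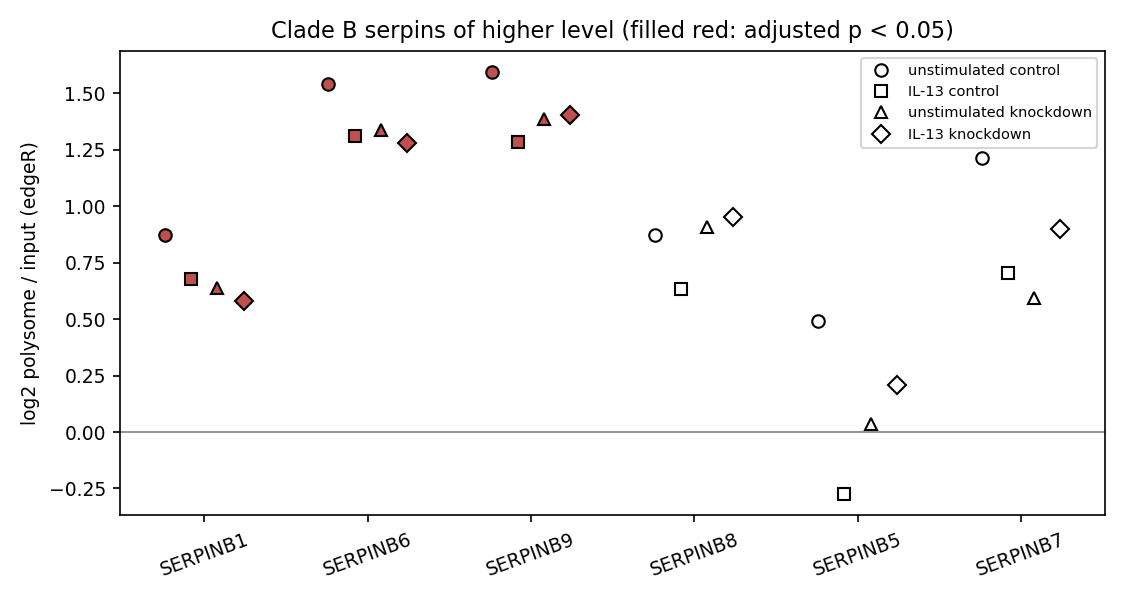
Log2 difference of polysome RNA from input (vertical axis, edgeR) for the 6 clade B serpins other than SERPINB3 and SERPINB4 that passed the filter, with 1 symbol per setting of line and treatment and filled red symbols for called differences. SERPINB1, SERPINB6 and SERPINB9 are called in all 4 settings, and SERPINB8, SERPINB5 and SERPINB7 in none.

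Of the 13 clade B serpins, 8 passed the filter. By RefSeq order 3 lie on chromosome 6 (SERPINB1, SERPINB6 and SERPINB9) and 10 on chromosome 18. The 3 of chromosome 6 were higher in polysome RNA in each setting, and 0 of the 5 tested on chromosome 18 were called. Of those 5, SERPINB3, SERPINB4, SERPINB5 and SERPINB7 were low, with no group mean above 3.30 CPM, while no group mean of the chromosome 6 genes was below 37.0 CPM. SERPINB8 had a higher mean in polysome RNA in each setting, with 49.4 CPM ± 56.5 against 26.9 ± 21.2 in unstimulated control cells (SD, n = 5). The 3 of 8 that were called stand beside 38.5% to 40.2% of all genes called in the same comparisons, so the count is near the background. SERPINB1, an inhibitor of neutrophil elastase-like proteases, was higher by 0.87 ± 0.19 in unstimulated control cells and by 0.58 ± 0.19 in IL-13 knockdown cells (log2, SE, edgeR adjusted p = 0.000288 and 0.0139). SERPINB9, the granzyme B inhibitor, was higher by 1.59 ± 0.23 and 1.40 ± 0.23 (adjusted p = 6.957e-07 and 6.339e-06). Whether the 2 clusters differ was not tested.

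With IL-13, 0 of the 8 tested clade B serpins were called within a line, and 4, 3, 3 and 4 of them were under an unadjusted p of 0.05. Among all 16735 genes tested, 0.0777% to 0.125% were called in these comparisons, and 341, 173, 860 and 538 were under that p. SERPINB3 and SERPINB4, already counted above, were among the serpins under it in each setting. SERPINB6, also counted above, was among them in all but control polysome RNA. SERPINB3 and SERPINB4 were at or near 0 without IL-13 and so passed the filter through their IL-13 libraries. The other 5 of the 13 were not tested. SERPINB7, a relative expressed in epidermis and kidney and named here after its values were seen, measured 0.243 CPM ± 0.238 and 1.03 ± 0.624 in unstimulated and IL-13 control input (SD, n = 5, log2 2.10, edgeR adjusted p = 1). SERPINB1 and SERPINB9 had IL-13 differences of 0.01 and -0.10 in control input and -0.06 and 0.04 in knockdown input, none called.

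Among 9 proteases known as targets of these inhibitors, 5 passed the filter (CTSL, CTSS, CTSK, CTSV and PLAU) and 0 were called for IL-13 in any of the 4 settings. Their medians were -0.24, -0.16, -0.41 and -0.22 on the log2 scale, against -0.0026, 0.0042, -0.0025 and -0.021 over all genes. Of 12 lipoxygenases and partners of ALOX15, 5 passed, and 0 were called for IL-13. Of all genes tested, 0.0777% to 0.125% were called in these comparisons, so a count of 0 in 5 is near the background. In polysome RNA against input, PEBP1, the partner with which ALOX15 oxidises phospholipids, was higher (log2 1.64 ± 0.16 in unstimulated control cells, edgeR adjusted p = 2.569e-10). GPX4, which reduces such lipid peroxides, was lower (-2.10 ± 0.28, adjusted p = 1.444e-07), as was LTA4H of the leukotriene pathway (-1.33 ± 0.19, adjusted p = 3.384e-07). In each setting the mean CPM was higher in polysome RNA than in input for PEBP1 and lower for GPX4 and LTA4H. Calls of this kind were common, with 40.2% of all genes called in unstimulated control cells, and a link between these genes was not tested.

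Of 30 type 2 airway epithelial genes, 7 passed the filter, ALOX15, SERPINB3 and SERPINB4 among them. CCL26, the eosinophil chemokine eotaxin-3, rose with IL-13 in all 4 settings. CCL26 rose by 7.00 ± 0.70 in control and 6.20 ± 0.66 in knockdown input (log2, SE, edgeR adjusted p = 2.479e-08 and 1.216e-07). TGM2, a transglutaminase, was called in knockdown polysome RNA (5.67 ± 1.23, adjusted p = 0.0488) and in none of the other 3 settings. Its IL-13 effect in knockdown polysome RNA differed from that in control polysome RNA by 4.30 ± 1.52 and from that in knockdown input by 1.15 ± 1.47 (interaction terms, edgeR adjusted p = 1 for both), so no difference between settings was called. Of 18 genes of IL-13 reception and signalling, 16 passed and 2 were called in each setting, the feedback inhibitors CISH and SOCS1, CISH with 4.01 ± 0.25 in control input (adjusted p = 4.905e-14) and SOCS1 with 2.69 ± 0.39. The share called among all genes tested was 0.0777% to 0.125% in these settings. Both lists were chosen with earlier results of these data known, so their counts are a description and not a test.

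The genes whose levels followed each member most closely over the 20 input libraries were found by Pearson correlation of log2(CPM + 1) among 14084 genes with a group mean of at least 1 CPM, given as a description of libraries that share treatment, line and depth. For ALOX15 they were MB (0.883), LIMA1 (0.875) and MSX1 (0.860). For SERPINB3 they were SERPINB4 (0.846), with which it shares part of its sequence, CCL26 (0.833) and SOCS1 (0.820). For SERPINB4 they were DNAJC25-GNG10 (0.829), TGM2 (0.822) and RFLNA (0.815). For SERPINB6 they were NFE2 (0.938), the epithelial keratin KRT8 (0.914) and NPPB (0.897). LIMA1, an actin-binding protein, was itself at 136 CPM ± 26.0 and 307 ± 52.1 in unstimulated and IL-13 control input (SD, n = 5), while MB, the myoglobin gene, was at 0.0488 ± 0.0390 and 1.12 ± 0.674.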

How the data were processed

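Per the labels' protocols, RNA was extracted with TRIzol, treated with DNase, selected for poly(A) and made into stranded paired-end libraries. The submitters' processing notes name MultiQC, Trimmomatic, Salmon and DESeq2. Versions, genome build and annotation are not given in the sources used here. The deposited table gave, per the file headers, an estimated count per gene and library, which carries decimals and was left unscaled for depth. The deposited TPM values were scaled by the authors for length and depth, per the file headers, and summed per library to between 82.3% and 85.9% of a full set.

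The design had assumed whole counts, so the estimated counts were rounded. The filter filterByExpr, over the 8 groups, kept 16735 genes, holding no less than 99.91% of any library's counts. CPM were computed from library sizes scaled with TMM factors. The edgeR 4.0.16 quasi-likelihood test (R 4.3.3) was fitted to all 40 libraries with a mean for each group, leaving 32 residual degrees of freedom. Two-sided p-values were adjusted across every tested gene by the Benjamini-Hochberg method, and genes were called at an adjusted p under 0.05. Ratios of summed counts carry exact 95% intervals, and a group at 0 counts was set to a floor of 3 counts over the group. A ratio to that floor carries no interval and is not a confidence bound. Intervals and floors cover counting error only, since the reads carry no molecular identifiers. Exact permutation tests used log2(CPM + 1), 5 libraries against 5, adjusted over the 8 effects of IL-13 and of the knockdown on a gene. These tests had been planned only for a member that failed the filter, which none did. The smallest p they can give is 0.00794. The fit was also run on simulated counts, for the IL-13 effect in control input only.

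The 4 genes and all gene lists were chosen with earlier results of these data known. Members were always named, IGF2BP3 once, and list genes only where called, at most 4 per list and comparison by smallest p, or where a sentence says otherwise. A called list gene is not reported here. Averages over both lines or both treatments, and ratios of summed counts, were added after seeing the data. Other alternatives were DESeq2 1.42.0 (size factors and Wald test), other filters and library sets, replicate blocks, summing SERPINB3 with SERPINB4, and leaving out each library. Nothing in the labels says that replicates came from separate experiments, so p-values measure the spread between these libraries. Replicates all differed by more than sampling noise (chi-square of 16.18 or more for each degree of freedom in 80 pairs). Alignments used Biopython 1.88.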

Additional observations from a re-analysis of the deposited data

Results flagged for a closer look

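In 4 of 28 groups of 5 libraries, 1 library lay far from the rest by Dixon's test. In 3 of these 4 the other libraries were at 0, where any single library with a count passes, so the usual chance rate of about 1 in 20 groups does not apply to them. ALOX15 was at 0.0561 CPM (1 count) in unstimulated knockdown polysome replicate 2, with the other 4 libraries at 0. SERPINB4 was at 0.285 CPM (8 counts) in unstimulated control input replicate 1 and at 0.0540 CPM (2 counts) in unstimulated knockdown input replicate 4, with the other 4 libraries at 0 in both groups. SERPINB6 was at 763 CPM in IL-13 knockdown polysome replicate 2, above the other 4 at 529 to 574 CPM.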

How the results depend on the processing

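Of 1016 values that the 88 results of the 4 members took under alternatives, 947 kept their direction and side of the threshold, 22 newly passed it, 5 no longer did and 42 had the opposite sign, none of those 42 called. SERPINB6 stayed called in polysome RNA against input under every alternative run. Counts of ALOX15, SERPINB3 and SERPINB4 near 0 limit every comparison of unstimulated cells. The causes of the changes below were not tested.

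Calls for IL-13 were gained as follows, in log2 units. SERPINB4 in knockdown input passed with the DESeq2 Wald test (6.09), with only the libraries compared (5.80) and without unstimulated control replicate 1 of both fractions, a pair of libraries named "that pair" below (5.81). The row of SERPINB3 and SERPINB4 summed passed in knockdown input (4.81), control polysome RNA (6.84) and both averages (3.79 and 4.96). Apart from IL-13 effects, the summed row also passed for unstimulated control polysome RNA against input (-4.46). SERPINB3 passed for IL-13 by exact permutation with a pseudocount of 1 (0.41 in control, 0.61 in knockdown input) and of 0.1 (1.68 and 2.23). These permutation values are differences of mean log2(CPM + pseudocount) and not edgeR fold changes. Averaged over lines, SERPINB3 in input passed with DESeq2 (3.34), without that pair (3.47) and with the 20 input libraries, which are the libraries compared (3.22). Averaged in polysome RNA, ALOX15 passed with DESeq2 (3.84), and SERPINB4 with DESeq2 (3.72) and without that pair (4.38). Lost were SERPINB3 averaged in polysome RNA with the 20 polysome libraries (5.34) or without IL-13 control replicate 4 (4.81), and SERPINB6 averaged in input without the filter (0.51) or without 1 of 6 libraries (lowest 0.45).

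Signs turned in knockdown effects of ALOX15 in IL-13 input, SERPINB3 in unstimulated input (0.13 without that pair), SERPINB4 in unstimulated input (1.86 without that pair) and SERPINB6 in unstimulated polysome RNA (-0.0046 without that pair). For polysome RNA against input they turned for ALOX15 in unstimulated knockdown cells (0.0240 with DESeq2 size factors, 0.96 with the Wald test, 0.21 with libraries of at least 5000000 counts), and with the summed row for SERPINB3 in unstimulated knockdown cells (0.92) and SERPINB4 in IL-13 control cells (-0.38). In the averaged knockdown effect in input SERPINB4 turned to 1.66 without that pair and 0.0623 as the summed row. Among interaction terms, the summed row gave -3.76 for the line difference in polysome RNA and -1.73 and -0.43 for the shifts of the IL-13 effect in knockdown and of the knockdown effect with IL-13. Without that pair the shift of the knockdown effect in unstimulated cells was -0.13 for SERPINB3, and the line difference in input -0.41 for SERPINB4. The SERPINB6 shift of the knockdown effect with IL-13 was 0.0053 with size factors, 0.0059 with the Wald test, 0.0718 with libraries of at least 5000000 counts and 0.0392 with only the libraries compared.

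Leaving out 1 library at a time gave ranges that crossed 0. For ALOX15 these were -0.23 to 0.36 and -1.66 to 0.0808 (knockdown effect in IL-13 and unstimulated input), -0.62 to 0.0808 and -1.98 to 0.52 (polysome against input, IL-13 control and unstimulated knockdown), -0.75 to 0.12 and -0.64 to 0.55 (averaged knockdown effect, input and polysome), and -2.86 to 0.34 (shift of the IL-13 effect, knockdown). For SERPINB3 they were -0.95 to 0.13 (knockdown effect, unstimulated input), -0.17 to 0.37 (its average), and -0.37 to 1.87 and -0.13 to 0.95 (shifts of the knockdown effect with and without IL-13). For SERPINB4 they were -3.45 to 1.84 (knockdown effect, unstimulated input), -0.997 to 1.65 (its average), -0.34 to 0.40 (polysome against input, IL-13 control) and -0.39 to 4.90 (line difference in input). For SERPINB6 they were -0.0634 to 0.16 (knockdown effect, unstimulated polysome), -0.0634 to 0.14 (line difference in input), -0.16 to 0.0394 (shift of the IL-13 effect, knockdown) and -0.13 to 0.0692 (shift of the knockdown effect, IL-13). Averaged over lines, the IL-13 ranges were 4.81 to 5.85 for SERPINB3 in polysome RNA and 0.45 to 0.55 for SERPINB6 in input.

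Same-numbered libraries were not treated as pairs, since in no comparison did every pair correlate above 0.1 over 8919 genes. For polysome RNA against input in unstimulated control cells 4 of 5 pairs did, from 0.0195 to 0.621. With the replicate number as a replicate block, no member gained or lost a call, and 3 signs turned: ALOX15 knockdown effect in IL-13 input (-0.0696), SERPINB3 averaged knockdown effect in input (-0.0325) and SERPINB4 polysome against input in IL-13 control cells (-0.28, and -0.11 with line, treatment and replicate number together as a block).

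Counts of all genes called moved by over 1.5 times in most comparisons. Over all alternatives they ran, for IL-13, from 8 to 33 in control input (13 in the test reported), 8 to 22 in knockdown input (14), 3 to 61 in control polysome (21) and 6 to 36 in knockdown polysome RNA (16), and averaged from 23 to 51 (25) and 21 to 82 (35). For the knockdown they ran from 0 to 28 (2), 0 to 55 (0), 0 to 90 (5) and 0 to 144 (15), and averaged from 53 to 226 (68) and 37 to 532 (231). For polysome against input they stayed between 5398 and 7166. For the 6 interaction terms they reached at most 25 with DESeq2.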
